A study of Mus musculus with 4 samples.

Results

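The genes of the collagen chains were followed across the cell kinds of Pan02 tumours in mice given anti-PD-1, anti-LIF, both antibodies or control IgG. Every symbol of the form Col, a number, a and a number was taken, which gave 44 chains among the 32285 genes of the count tables. The rule used the symbols alone and no measured value, but it was set with earlier results of these data known. Of the 44 chains, 30 passed the minimum level in at least 1 cell kind and 14 passed it in none. All 44 had at least 1 UMI (a counted RNA molecule), and 4 of them had under 20 UMIs in all libraries together: Col4a3 with 14, Col10a1 with 8, Col19a1 with 3 and Col25a1 with 9.

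Pan02 is a mouse pancreatic cancer cell line. Per the labels, Pan02 cells in PBS and Matrigel were placed under the skin of the right flank of female C57BL/6 mice of 6 to 7 weeks, so the tumours grew outside the pancreas in hosts with an intact immune system. Treatment groups were formed when tumours had reached about 50 mm3. The libraries are labelled anti-PD-1 (an antibody against PD-1, an inhibitory receptor of T cells), anti-LIF (an antibody against the cytokine LIF), combo (both antibodies) and control (IgG). The protocol text, which is the same for all 4, gives 200 µg of anti-PD-1 (clone RMP1-14) with IgG or anti-LIF at 25 mg/kg, 3 times a week, and does not spell out the dosing of each library. Each group was 1 single-cell 3' RNA library made from 3 combined samples, so no animal could be told from another and no difference between groups was tested.

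Collagens are proteins of the extracellular matrix, each a triple helix of alpha chains that are modified in the endoplasmic reticulum, secreted, trimmed and cross-linked. Fibrillar collagens such as types I, III and V form the load-bearing fibrils of connective tissue, and fibril-associated collagens such as types XII and XIV sit on their surface. Type VI forms beaded microfibrils, and type IV builds the sheet of basement membranes, in which types XV and XVIII are anchored. In pancreatic tumours the dense collagen-rich stroma is made mainly by activated fibroblasts.

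Cells were gated by UMIs of marker genes, among which there was no collagen chain. Of 63443 cells that passed the quality filter, 43258 fell in a gate. Cancer cells (keratins) numbered 2024 under anti-PD-1, 1606 under anti-LIF, 2058 in combo and 4364 in control. Fibroblasts numbered 689, 2058, 2115 and 720 in the same libraries, which is 4.79%, 14.7%, 12.9% and 3.86% of the cells kept. They were split into Lrrc15 fibroblasts (Lrrc15, Cthrc1, Postn, Fap and Grem1 lead; 400, 1114, 895 and 258 cells), Dpt fibroblasts (Pi16, Dpt, Clec3b, Dpp4 and Sema3c lead; 86, 332, 719 and 200 cells) and intermediate fibroblasts between them (203, 612, 501 and 262 cells). The split is a range along 2 marker lists: 88, 366, 327 and 185 of the intermediate fibroblasts held at least 3 UMIs of both lists. Endothelial cells numbered 355, 832, 945 and 239, macrophages 4448, 4325, 4737 and 677, and T cells 1638, 1128, 1418 and 6697.

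Krt18 was at 963 CPM under anti-PD-1, 1509.8 under anti-LIF, 1214 in combo and 907 in control in cancer cells, and at most 8.53 CPM in fibroblasts, where CPM is the UMIs of a gene over all UMIs of the gated cells, scaled so that each gate and library has the same sum. Xist, which the cells of female hosts express, was at 4.76 CPM under anti-PD-1, 7.06 under anti-LIF, 9.83 in combo and 3.84 in control in cancer cells and at 112 CPM under anti-PD-1, 141 under anti-LIF, 156 in combo and 118 in control in fibroblasts. Pericytes (13, 63, 100 and 9 cells) were too few under anti-PD-1 and control for ratios, and their gate also held Pecam1, an endothelial marker, at 883 CPM under anti-PD-1, 990.0 under anti-LIF, 1073 in combo and 816 in control. Libraries held 67503066 UMIs under anti-PD-1, 57720774 under anti-LIF, 94984486 in combo and 111164731 in control. Pairs of libraries shared 277 to 392 barcodes, which is 1.84% to 2.27% of the barcodes of the smaller library. In combo the gland epithelium markers, which no gate used as its own, summed to 1517 CPM in endothelial cells, against 1.97 CPM in control. T cells, which should make no fibrillar collagen, gave the level of free RNA: their summed collagen level was 945 CPM under anti-PD-1, 1649 under anti-LIF, 1506 in combo and 669.9 in control.

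Promoter stretches of 5 chains are shown because these genes carry the contrasts that follow. Col1a2 and Col3a1 (type I and III fibrils) were far higher in fibroblasts than in cancer cells, Col18a1 (type XVIII, the source of endostatin) was higher in cancer cells than in fibroblasts, and Col5a3 and Col7a1 were higher in cancer cells of all 3 treated libraries than of control. The sequences are RefSeq's (GRCm38.p6), 5′ to 3′ on the strand of the gene. Each is the longest run of up to 250 bases before the RefSeq start that holds no annotated exon. They lie at chr6:4505370-4505492 (plus strand), chr1:45311288-45311537 (plus), chr10:77166549-77166780 (minus), chr9:20815068-20815317 (minus) and chr9:108953336-108953585 (plus). The Col1a2 stretch lies inside the annotated gene, which begins at 4504814, and ends short of the RefSeq start at 4505618. Capitals mark matches on either strand. The motif searched for the box that binds TBP was TATAAA. For the box bound by the factor NF-Y it was CCAAT. For the box bound by factors such as SP1 it was GGGCGG. For the element bound by SMAD proteins it was CAGAC, and none of these matches overlapped another.
Col1a2: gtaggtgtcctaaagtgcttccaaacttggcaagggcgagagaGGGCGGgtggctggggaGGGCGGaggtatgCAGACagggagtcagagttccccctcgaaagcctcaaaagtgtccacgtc
Col3a1: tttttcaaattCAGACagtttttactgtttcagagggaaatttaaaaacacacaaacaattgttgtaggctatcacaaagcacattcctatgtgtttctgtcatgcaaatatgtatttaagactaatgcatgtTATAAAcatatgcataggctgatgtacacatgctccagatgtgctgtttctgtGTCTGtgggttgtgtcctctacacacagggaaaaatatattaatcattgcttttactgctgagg
Col18a1: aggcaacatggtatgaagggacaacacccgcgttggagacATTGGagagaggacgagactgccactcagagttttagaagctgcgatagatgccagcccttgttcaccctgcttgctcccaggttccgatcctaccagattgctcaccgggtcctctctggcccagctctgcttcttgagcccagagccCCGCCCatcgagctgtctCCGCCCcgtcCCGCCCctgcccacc
Col5a3: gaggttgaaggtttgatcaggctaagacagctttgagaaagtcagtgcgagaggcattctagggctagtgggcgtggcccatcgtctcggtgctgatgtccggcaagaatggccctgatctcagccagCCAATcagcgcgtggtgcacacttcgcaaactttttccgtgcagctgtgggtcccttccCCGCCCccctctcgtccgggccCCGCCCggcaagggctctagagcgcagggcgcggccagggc
Col7a1: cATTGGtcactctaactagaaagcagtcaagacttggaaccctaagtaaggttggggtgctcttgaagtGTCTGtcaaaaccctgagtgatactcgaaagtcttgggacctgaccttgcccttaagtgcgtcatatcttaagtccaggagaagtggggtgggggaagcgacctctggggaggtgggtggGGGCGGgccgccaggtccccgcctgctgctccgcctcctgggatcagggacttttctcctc

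The TATAAA match of Col3a1 lay 117 bases before the start of the gene, and its SMAD elements lay 239 and 64 bases before it. The GC boxes of Col18a1 lay 61, 43 and 33 bases before its start, and those of Col5a3 63 and 41 bases before. Over the whole windows of 300 bases (250 before the start and 50 after it), 35 of the 44 chains had an entry. Of these 35, 5 held TATAAA (14.3%, against 14.2% of 27025 promoters), 12 held CCAAT (34.3% against 37.9%), 22 held GGGCGG (62.9% against 35.9%) and 17 held CAGAC (48.6% against 49.7%). TGANTCA (AP-1 element) was found in 1 (Col6a1; 2.86% against 7.93%) and TTCNNNGAA (STAT element) in 2 (Col28a1 and Col6a5; 5.71% against 8.47%). These are matches of letters, not bound sites. The Col1a2 window is among those with CCAAT, which lies outside the stretch shown. Entries were missing for Col1a1, Col2a1, Col4a3, Col5a2, Col9a3, Col12a1, Col14a1, Col22a1 and Col26a1. Col4a1 and Col4a2, whose chains join in the common type IV collagen, start head to head on chromosome 8, at 11312826 on the minus strand and 11312805 on the plus strand, so the genes overlap by 22 bases.

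Collagen RNA was most abundant in fibroblasts. Summed over the 44 chains, whole libraries held 17342 CPM under anti-PD-1, 37878 under anti-LIF, 35884 in combo and 11148 in control. Fibroblasts held 53.9% under anti-PD-1, 69.1% under anti-LIF, 64.4% in combo and 45.4% in control of all collagen UMIs of their library, and cancer cells 15.7% under anti-PD-1, 4.96% under anti-LIF, 6.40% in combo and 22.9% in control. Under anti-LIF and combo, the libraries with most fibroblasts, the whole-library level was the highest.

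Within a cell kind the summed level differed far less between libraries. Lrrc15 fibroblasts held 161236 CPM under anti-PD-1, 161613 under anti-LIF, 160048 in combo and 156849 in control, which is 16.1%, 16.2%, 16.0% and 15.7% of their UMIs. Dpt fibroblasts held 86226 CPM under anti-PD-1, 99148 under anti-LIF, 87779 in combo and 84897 in control. Across all fibroblasts the level was 144222 CPM under anti-PD-1, 137171 under anti-LIF, 125545 in combo and 117712 in control, with log2 ratios to control of 0.29 under anti-PD-1, 0.22 under anti-LIF and 0.093 in combo. The combo ratio became -0.062 with a stricter gate. The share of Lrrc15 fibroblasts among fibroblasts, the kind with more collagen, was 58.1%, 54.1%, 42.3% and 35.8% under anti-PD-1, anti-LIF, combo and control.

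Cancer cells held 6677 CPM under anti-PD-1, 6057 under anti-LIF, 7013 in combo and 4852 in control, with log2 ratios to control of 0.46 under anti-PD-1, 0.32 under anti-LIF and 0.53 in combo. In combo the cancer cell ratio was 1.33 among cells with at most 10% mitochondrial UMIs and 0.27 among cells with no Xist UMI. Endothelial cells held 14578 CPM under anti-PD-1, 14762 under anti-LIF, 13248 in combo and 11742 in control. Of this, basement membrane chains made up 12421 CPM under anti-PD-1, 13306 under anti-LIF, 11139 in combo and 10685 in control. Macrophages held 1420.2 CPM under anti-PD-1, 1434 under anti-LIF, 1615 in combo and 1856 in control. As CPM this was below the T cell level under anti-LIF and above it in the other libraries. Per cell they held 4.98, 4.71, 7.46 and 8.68 collagen UMIs under anti-PD-1, anti-LIF, combo and control. T cells held 1.59, 2.53, 2.93 and 1.49 per cell, fewer in every library. Macrophages also had a higher median of all UMIs per cell.

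**Figure D1:**
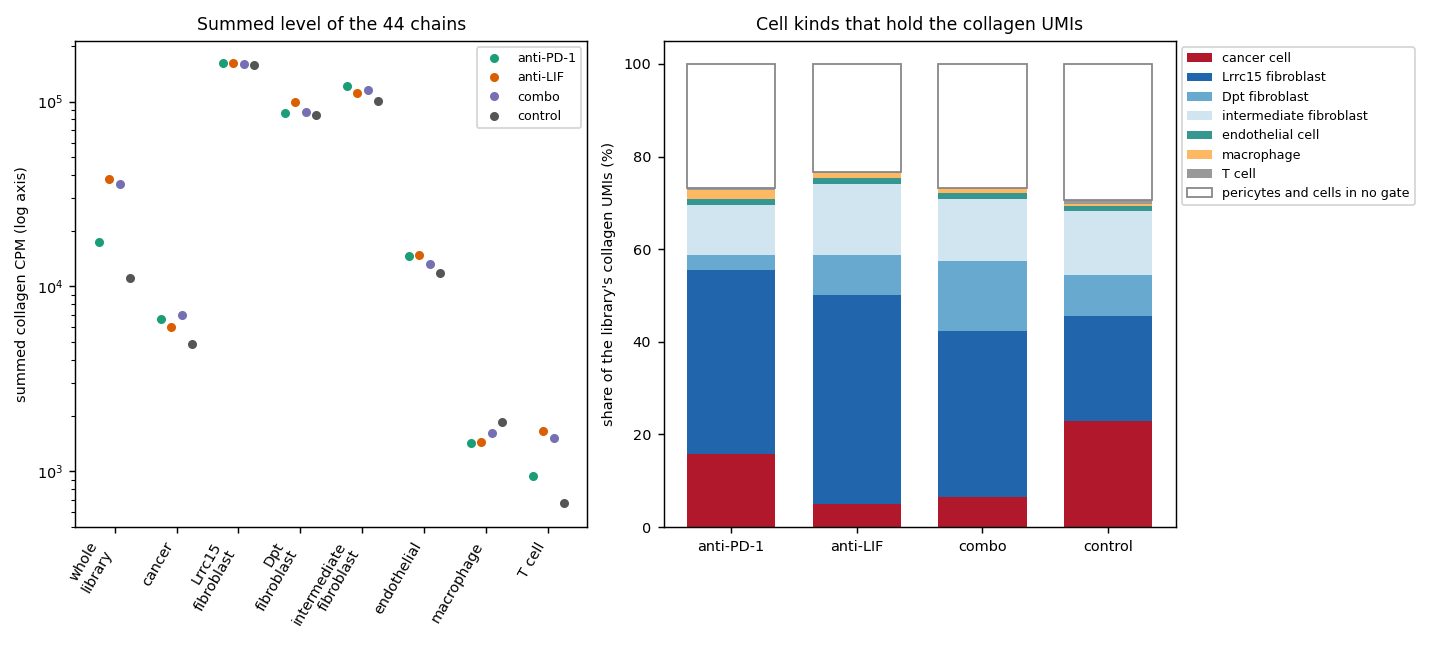
Left, summed level of the 44 collagen chains (CPM, log axis) in each cell kind and library, with exact Poisson 95% intervals narrower than the points. Right, share of the collagen UMIs of each library (percent) held by each cell kind. Lrrc15 fibroblasts sit near 160048 CPM in every library, and fibroblasts hold 69.1% of collagen UMIs under anti-LIF against 45.4% in control.

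Among 6 gated kinds (cancer cells, the 3 kinds of fibroblast, endothelial cells and macrophages), the following chains had the same top kind in all 4 libraries: 16 chains in Lrrc15 fibroblasts, 4 in endothelial cells (Col4a1, Col4a2, Col13a1 and Col15a1), 3 in Dpt fibroblasts (Col4a5, Col6a5 and Col14a1), 2 in intermediate fibroblasts (Col3a1 and Col5a3) and 1 in cancer cells (Col18a1). Pericytes, with 13, 63, 100 and 9 cells, were not ranked, and in their gate Col18a1 was at 1046 CPM under anti-PD-1, 851 under anti-LIF, 836 in combo and 1959.6 in control, with 95% intervals that hold the cancer cell level except in control, where pericytes were higher.

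Each treated library was set against control to ask which chains differed with the antibodies inside a cell kind. A chain was counted where its mean was at least 10 CPM with at least 20 UMIs in all, and called where its log2 ratio was at least 1 in size. The 3 comparisons share the control library, and brackets hold 95% intervals that cover counting error only. In cancer cells, 3 of 16 counted chains were called under anti-PD-1 (3.01% of all genes counted were), 4 of 16 under anti-LIF (8.44%) and 8 of 16 in combo (5.33%), all of them higher except Col14a1 under anti-PD-1. The median log2 ratio of the 16 chains was 0.46 under anti-PD-1, 0.63 under anti-LIF and 0.95 in combo. Over all genes it was 0.16 under anti-PD-1, 0.20 under anti-LIF and 0.17 in combo, so cancer cell ratios are read against a general shift of that size. Relative to it, Col1a2 under anti-LIF was at 0.93, Col6a1 in combo at 0.90 and Col14a1 in combo at 0.85, under the size that counts as called. With a stricter gate, which left 198 cancer cells under anti-PD-1 and 561 in control, the Col14a1 ratio of -1.04 (-1.36 to -0.74) became 3.17.

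In Lrrc15 fibroblasts 4, 6 and 5 of 24 chains were called under anti-PD-1, anti-LIF and combo (5.89%, 5.14% and 5.02% of all genes). As a mean over cells these counts were 3, 3 and 3, and at a mean of at least 50 CPM they were 3, 3 and 2. The shares of all genes under those 2 settings are not given. In Dpt fibroblasts 4, 1 and 3 of 24 chains were called (11.6%, 7.18% and 5.4%) and in intermediate fibroblasts 5, 1 and 4 of 24 (8.85%, 4.97% and 4.46%). Over all fibroblasts together the counts were 5, 2 and 2 of 25 (4.84%, 3.49% and 2.52%). In endothelial cells 5, 6 and 7 of 17 chains were called (8.93%, 9.77% and 8.2%), but under anti-PD-1 none was called once the 10 cells with most collagen were left out. In macrophages 4, 9 and 7 of 15 chains were called (6.95%, 10.5% and 10%), all lower than control, but with a stricter gate none was called under anti-PD-1 and most of these ratios changed sign.

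Fibrillar chains made up most collagen RNA of fibroblasts, and in Lrrc15 fibroblasts they were nearly level across the libraries. Col1a1, the main chain of type I collagen, was at 68459 CPM under anti-PD-1, 65933 under anti-LIF, 67326 in combo and 66077 in control in these cells. Its partner Col1a2 was at 36908 CPM under anti-PD-1, 37770.1 under anti-LIF, 40126 in combo and 42911 in control, with the treated libraries a little lower than control. Col3a1, the chain of type III collagen, was at 35522 CPM under anti-PD-1, 35908 under anti-LIF, 30056 in combo and 28236 in control. Control was the lowest library for Col3a1 and the highest for Col1a2, and none of these ratios reached 1 in size.

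Dpt fibroblasts held less type I collagen RNA than Lrrc15 fibroblasts and as much type III. Col1a1 was at 29134 CPM under anti-PD-1, 29469 under anti-LIF, 25394 in combo and 25217 in control in Dpt fibroblasts, and Col3a1 at 26491 CPM under anti-PD-1, 35794 under anti-LIF, 30499.7 in combo and 31173 in control. Set against Dpt fibroblasts of the same library, Lrrc15 fibroblasts had log2 ratios of 1.16 to 1.41 for Col1a1, 0.90 to 1.27 for Col1a2 and -0.14 to 0.42 for Col3a1. The Col1a1 ratio was past 1 in every library, and the Col3a1 ratio lay on both sides of 0.

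Type V collagen limits the width of type I fibrils. Its chains Col5a1 and Col5a2 differed little between libraries in Lrrc15 fibroblasts, at 2775 CPM under anti-PD-1, 2959 under anti-LIF, 2792 in combo and 3022 in control for Col5a1 and 2674 CPM under anti-PD-1, 2661 under anti-LIF, 2554 in combo and 2148 in control for Col5a2. Col5a3, a less widespread type V chain, was at 474 CPM under anti-PD-1, 321 under anti-LIF, 381 in combo and 216 in control in these cells. All 3 treated libraries lay above control for Col5a3, with log2 ratios of 1.14 (0.97 to 1.31) under anti-PD-1, 0.57 (0.41 to 0.74) under anti-LIF and 0.82 (0.66 to 0.99) in combo. Without the 10 cells with most collagen the anti-PD-1 ratio was 0.86, under the size that counts as called. In intermediate fibroblasts Col5a3 was at 648 CPM under anti-PD-1, 342 under anti-LIF, 396 in combo and 228 in control, again lowest in control.

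The minor fibrillar chains were low, and of these Col11a1 and Col24a1 marked Lrrc15 fibroblasts. The log2 ratios over Dpt fibroblasts were not past 1 in every library for Col27a1 (0.84 to 1.29) and Col11a2 (0.37 to 3.19). Col11a1, a type XI chain of cartilage and tumour fibroblasts, was at 205 CPM under anti-PD-1, 104 under anti-LIF, 164 in combo and 156 in control in Lrrc15 fibroblasts and at 14.02 CPM under anti-PD-1, 4.56 under anti-LIF, 3.76 in combo and 2.50 in control in Dpt fibroblasts. Col27a1 was at 69.05 CPM under anti-PD-1, 59.3 under anti-LIF, 61.9 in combo and 78.2 in control in Lrrc15 fibroblasts. Col24a1 was at 18.2 CPM under anti-PD-1, 11.6 under anti-LIF, 8.59 in combo and 20.3 in control there. Anti-LIF was the lowest library for Col11a1, and combo the lowest for Col24a1, with a log2 ratio of -1.25 (-1.87 to -0.59) to control. Col11a2 was carried by few cells: under anti-PD-1 all 82 of its UMIs lay in 7 of 400 Lrrc15 fibroblasts, and control held 4 UMIs. Its combo ratio of 1.46 (0.18 to 3.55) became -1.43 without the 10 cells with most collagen.

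Cancer cells held type I collagen RNA at a far lower level than fibroblasts, with the order of libraries differing from chain to chain. Col1a1 was at 2367 CPM under anti-PD-1, 1096 under anti-LIF, 1576 in combo and 1517 in control in cancer cells. Anti-PD-1 was highest and anti-LIF lowest, and the log2 ratios to control were 0.64 (0.63 to 0.66) under anti-PD-1, -0.47 (-0.49 to -0.45) under anti-LIF and 0.055 (0.038 to 0.071) in combo. In combo 32.5% of the Col1a1 UMIs of cancer cells lay in 10 of 2058 cells, and the combo ratio was -0.40 without the 10 cells with most collagen and 1.20 at no more than 10% mitochondrial UMIs.

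Thinned to 1000 UMIs per cell, the share of cancer cells with a Col1a1 UMI was 65.1% under anti-PD-1, 42.3% under anti-LIF, 45.4% in combo and 50.01% in control. The same share of T cells was 26.5% under anti-PD-1, 31.1% under anti-LIF, 41.1% in combo and 14.4% in control. Cells too shallow to thin were left out. In the same order these were 97, 160, 161 and 157 cancer cells and 582, 456, 302 and 1210 T cells. The thinned shares therefore cover unlike parts of the 4 libraries and of each kind. Both kinds lay closest in combo, and since the thinned share and the CPM of cancer cells order combo and control differently, no order of those libraries is read from it. Unthinned, the shares were 86.2% under anti-PD-1, 78.6% under anti-LIF, 86.1% in combo and 75.7% in control in cancer cells and 35.6% under anti-PD-1, 39.7% under anti-LIF, 54.7% in combo and 23.03% in control in T cells, where the median depths were 9397, 6123, 10454 and 11346.5 UMIs for cancer cells and 1270.5, 1160.5, 1544.5 and 1551 UMIs for T cells.

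Col1a2 and Col3a1 were higher in cancer cells of the treated libraries than of control, most of all in combo. Col1a2 was at 251 CPM under anti-PD-1, 294 under anti-LIF, 608 in combo and 134 in control, and the log2 ratios were 0.91 (0.86 to 0.95) under anti-PD-1, 1.13 (1.08 to 1.19) under anti-LIF and 2.18 (2.14 to 2.22) in combo. Col3a1 was at 256 CPM under anti-PD-1, 331 under anti-LIF, 572 in combo and 201 in control, with ratios of 0.35 (0.31 to 0.40) under anti-PD-1, 0.72 (0.67 to 0.77) under anti-LIF and 1.51 (1.48 to 1.55) in combo. Col5a2 followed the same order, at 18.6 CPM under anti-PD-1, 20.2 under anti-LIF, 42.9 in combo and 10.1 in control. For all 3 chains the intervals of the treated libraries lay above that of control. As CPM, Col1a2 was below the T cell level under anti-LIF and above it in the other libraries. That T cell level, given below with endothelial cells, was also lowest in control. Thinned to 1000 UMIs per cell, 14.2%, 20.1%, 18.6% and 9.70% of cancer cells held Col3a1 under anti-PD-1, anti-LIF, combo and control. For T cells the shares were 10.98%, 21.9%, 22.9% and 6.56%. The part of free RNA was not tested.

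Few cancer cells held much of the Col1a2 RNA. Of its UMIs, 46.04%, 49.2%, 48.2% and 46% lay in 10 cells of anti-PD-1, anti-LIF, combo and control. The 5 markers of Lrrc15 fibroblasts, all with UMIs in the cancer cell gate of every library, summed to 28.7 CPM under anti-PD-1, 73.3 under anti-LIF, 133 in combo and 14.9 in control there. The 7 general fibroblast markers, also all detected, summed to 620.2 CPM under anti-PD-1, 383 under anti-LIF, 581 in combo and 608 in control. The 5 markers of Pi16 and Dpt fibroblasts, all detected, summed to 186 CPM under anti-PD-1, 81.3 under anti-LIF, 122 in combo and 331 in control. The Lrrc15 sum and Xist were highest in combo and lowest in control, in the order of Col1a2, while the other fibroblast sums ran in other orders, and that of the Pi16 and Dpt markers was highest in control. The 7 gland epithelium markers, of which 5, 6, 7 and 4 were detected, summed to 3.61 CPM under anti-PD-1, 4.49 under anti-LIF, 119 in combo and 2.81 in control, also highest in combo. The part of fibroblast RNA in the result was not tested. Among cancer cells with no Xist UMI the Col1a2 ratios were 0.65, 1.04 and 1.42, and those of Col3a1 0.0012, 0.55 and 0.67. Among cancer cells without a UMI of Fbln1, Serpinf1, Mfap5, Postn, Cthrc1 and Lrrc15 the combo ratios were 1.46 for Col1a2 and 1.27 for Col3a1.

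Col5a3 was low in cancer cells and higher in each treated library. It was at 18.9 CPM under anti-PD-1, 31.5 under anti-LIF, 20.3 in combo and 7.13 in control, with log2 ratios of 1.41 (1.21 to 1.60) under anti-PD-1, 2.14 (1.95 to 2.33) under anti-LIF and 1.51 (1.32 to 1.70) in combo. Every treated library lay above control, and over all alternatives the ratios stayed between 1.24 and 1.54 under anti-PD-1, 1.94 and 2.32 under anti-LIF and 1.34 and 1.88 in combo. The T cell level was 4.35 CPM under anti-PD-1, 2.31 under anti-LIF, 2.17 in combo and 1.01 in control. Col5a1 was at 516 CPM under anti-PD-1, 522 under anti-LIF, 406 in combo and 435 in control in cancer cells, without a called ratio.

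**Figure D2:**
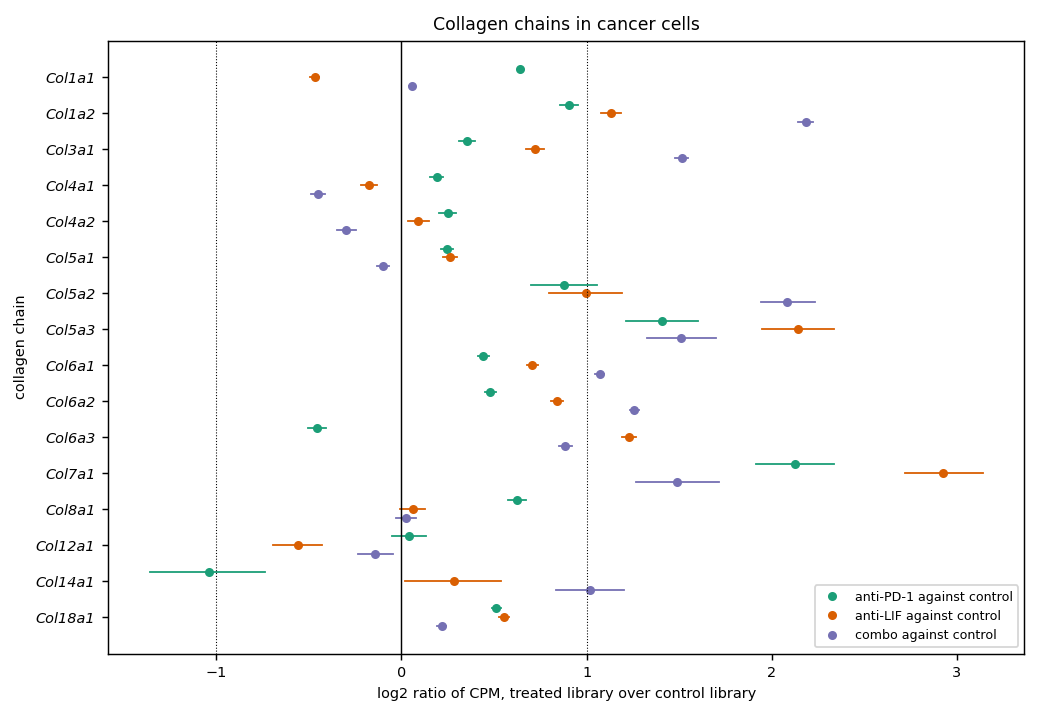
Log2 ratio of CPM of each treated library over control for the 16 collagen chains counted in cancer cells, with exact conditional 95% intervals for counting error; dotted lines mark a size of 1. Col5a3 and Col7a1 lie right of 1 in all 3 comparisons, Col1a2 reaches 2.18 in combo, and Col14a1 lies left of -1 under anti-PD-1.

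Fibrillar chains in endothelial cells and macrophages were far below the level in fibroblasts. As CPM they were above or below the T cell level depending on the library. In endothelial cells Col1a1 was at 901 CPM under anti-PD-1, 516 under anti-LIF, 789 in combo and 385 in control and Col1a2 at 446 CPM under anti-PD-1, 322 under anti-LIF, 469 in combo and 141 in control. The T cell level was 368 CPM under anti-PD-1, 635 under anti-LIF, 573 in combo and 240.3 in control for Col1a1 and 150.4 CPM under anti-PD-1, 345 under anti-LIF, 305 in combo and 69.8 in control for Col1a2, lowest in control, as in endothelial cells. As CPM, endothelial cells were above the T cell level of both chains in every library except anti-LIF. Counted per cell they were above it under anti-LIF too. They held 977 Col1a1 and 609 Col1a2 UMIs in 832 cells, against 1101 and 599 in 1128 T cells. The endothelial log2 ratios of Col1a2 were 1.66 (1.39 to 1.95) under anti-PD-1, 1.19 (0.93 to 1.47) under anti-LIF and 1.74 (1.49 to 2.00) in combo. With the T cell level per cell subtracted the anti-LIF ratio was -0.24, and without the 10 cells with most collagen the anti-PD-1 ratio was 0.029. In macrophages Col1a1 was at 519 CPM under anti-PD-1, 493 under anti-LIF, 567 in combo and 622 in control. As CPM this was above the T cell level under anti-PD-1 and in control, below it under anti-LIF and about level in combo. Counted per cell, macrophages were above T cells under anti-LIF (7007 Col1a1 UMIs in 4325 cells against 1101 in 1128). They were also above them in combo (12397 in 4737 against 1580 in 1418).

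The fibril-associated chains Col12a1 and Col14a1 separated both kinds of fibroblast. Col12a1, which decorates fibrils in tissues under tension, was at 2373 CPM under anti-PD-1, 1961 under anti-LIF, 2165 in combo and 3107 in control in Lrrc15 fibroblasts and at 269 CPM under anti-PD-1, 242 under anti-LIF, 129.7 in combo and 132 in control in Dpt fibroblasts. Col14a1, a fibril-associated chain of resting connective tissue, ran the other way, at 781 CPM under anti-PD-1, 1058 under anti-LIF, 769 in combo and 881 in control in Lrrc15 fibroblasts and 1963 CPM under anti-PD-1, 2318 under anti-LIF, 1696 in combo and 2558 in control in Dpt fibroblasts. The log2 ratios of Lrrc15 over Dpt fibroblasts were 3.01 to 4.56 for Col12a1 and -1.54 to -1.13 for Col14a1, with the same sign in all 4 libraries. Col16a1 was at 197 CPM under anti-PD-1, 207 under anti-LIF, 201 in combo and 251 in control in Lrrc15 fibroblasts. Its log2 ratios over Dpt fibroblasts ran from 0.38 to 1.36, so they were not past 1 in every library.

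Against Dpt fibroblasts, Lrrc15 fibroblasts were past a log2 ratio of 1 in all 4 libraries for 7 of 29 chains in the higher direction (2.17% of all genes were): Col1a1, Col7a1, Col8a1, Col8a2, Col11a1, Col12a1 and Col24a1. In the lower direction there were 8 of 29 (3.61%): Col4a1, Col4a2, Col4a4, Col4a5, Col6a5, Col6a6, Col14a1 and Col28a1. The split used no collagen chain, but it can draw apart any gene that runs with its markers, so these counts describe the split and are no test of it.

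**Figure D3:**
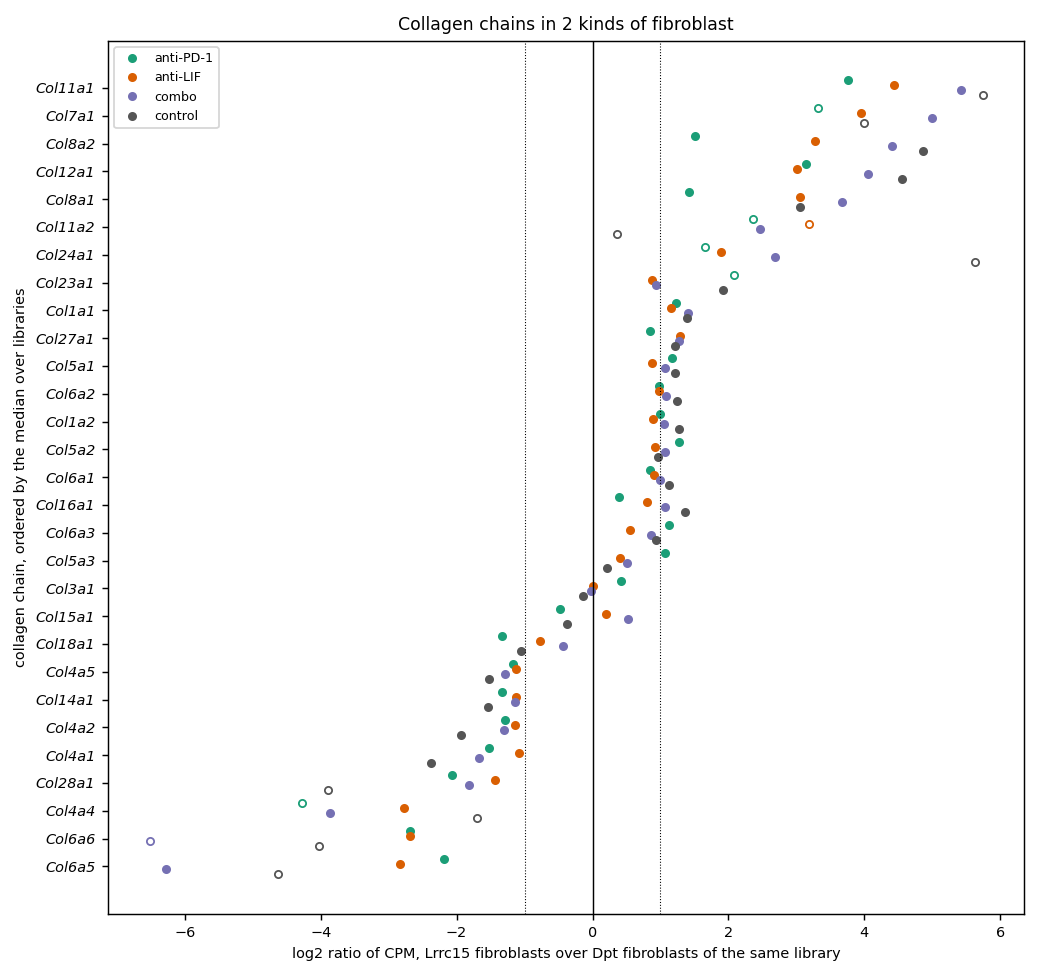
Log2 ratio of CPM in Lrrc15 over Dpt fibroblasts of the same library for 29 collagen chains, ordered by the median of the 4 libraries; open circles mark ratios with 3 or fewer UMIs in either kind, and dotted lines mark a size of 1. Col11a1, Col7a1, Col8a2 and Col12a1 lie far to the right and Col6a5, Col6a6 and Col4a4 far to the left, while Col3a1 has a median of -0.01.

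Type VIII collagen is a short chain network of vessel walls and remodelled matrix. Col8a1 was at 1293 CPM under anti-PD-1, 1368 under anti-LIF, 1420.4 in combo and 928 in control in Lrrc15 fibroblasts, highest in the treated libraries. Col8a2, its partner, was at 409 CPM under anti-PD-1, 349.8 under anti-LIF, 354 in combo and 545 in control, highest in control. In Dpt fibroblasts Col8a1 was at 481 CPM under anti-PD-1, 165 under anti-LIF, 111 in combo and 112 in control and Col8a2 at 143 CPM under anti-PD-1, 35.9 under anti-LIF, 16.6 in combo and 18.3 in control. Anti-PD-1 stood above the other libraries there for both chains, with log2 ratios to control of 2.11 (1.79 to 2.43) and 2.94 (2.23 to 3.73), and of 1.62 and 1.61 without the 10 cells with most collagen. That library held 86 Dpt fibroblasts, and Lrrc15 was at 28.04 CPM under anti-PD-1, 44.5 under anti-LIF, 14.5 in combo and 6.67 in control in the Dpt gate. The whole list of 5 Lrrc15 fibroblast markers ran otherwise there. It summed to 731 CPM under anti-PD-1, the lowest library, 1350 under anti-LIF, 906 in combo and 1289 in control.

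Col7a1, the anchoring fibril chain of epithelial basement membranes, was higher in cancer cells of every treated library than of control. It was at 21.7 CPM under anti-PD-1, 37.8 under anti-LIF, 13.9 in combo and 4.96 in control, with log2 ratios of 2.12 (1.91 to 2.34) under anti-PD-1, 2.93 (2.72 to 3.14) under anti-LIF and 1.49 (1.26 to 1.72) in combo. Anti-LIF was highest and control lowest, and none of the intervals overlapped. The cells with a Col7a1 UMI were many: 374 of 2024, 413 of 1606, 300 of 2058 and 230 of 4364. The T cell level was 1.81 CPM under anti-PD-1, 4.61 under anti-LIF, 1.09 in combo and 0.739 in control. With a stricter gate the combo ratio was 0.84, and in the other alternatives all 3 ratios stayed past 1. In Lrrc15 fibroblasts Col7a1 was at 34.9 CPM under anti-PD-1, 48.3 under anti-LIF, 31.3 in combo and 19.7 in control, with control again lowest.

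Other chains of this group were low. Col23a1, a membrane-bound collagen, was at 34.5 CPM under anti-PD-1, 12.95 under anti-LIF, 13.03 in combo and 32.8 in control in Lrrc15 fibroblasts, lower under anti-LIF and combo than under anti-PD-1 and control. Col13a1, also membrane-bound, was counted in endothelial cells alone, at 38.3 CPM under anti-PD-1, 23.2 under anti-LIF, 17.1 in combo and 49.1 in control, with a log2 ratio to control of -1.08 (-1.70 to -0.47) under anti-LIF and -1.52 (-2.11 to -0.93) in combo. Col28a1, a chain best known from Schwann cells, was at 4.60 CPM under anti-PD-1, 1.56 under anti-LIF, 1.33 in combo and 19.6 in control in cancer cells, under the minimum of 10 CPM on average, with control highest. In macrophages Col14a1 was at 81.3 CPM under anti-PD-1, 57.7 under anti-LIF, 35.4 in combo and 56.5 in control, against 6.88 CPM under anti-PD-1, 13.8 under anti-LIF, 6.89 in combo and 4.97 in control in T cells, so it stood above the free RNA level in every library. It was spread over 711 of 4448, 462 of 4325, 475 of 4737 and 103 of 677 macrophages.

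Of the type VI chains of cancer cells, Col6a1 and Col6a2 were called in combo, and in fibroblasts their sum differed by less than that size. In cancer cells Col6a1 was at 605 CPM under anti-PD-1, 727 under anti-LIF, 935 in combo and 445 in control and Col6a2 at 543 CPM under anti-PD-1, 696 under anti-LIF, 932 in combo and 389 in control. Both genes lie on chromosome 10, and for both combo was highest and control lowest. The log2 ratios were 0.44 (0.41 to 0.47) under anti-PD-1, 0.71 (0.68 to 0.74) under anti-LIF and 1.07 (1.05 to 1.10) in combo for Col6a1 and 0.48 (0.45 to 0.51) under anti-PD-1, 0.84 (0.81 to 0.87) under anti-LIF and 1.26 (1.23 to 1.28) in combo for Col6a2. Relative to the median of all genes the combo ratios were 0.90 and 1.09. Col6a3, the longest chain of the microfibril, was at 178 CPM under anti-PD-1, 572 under anti-LIF, 451 in combo and 244 in control. Anti-PD-1 lay below control there, and anti-LIF was called at 1.23 (1.19 to 1.27).

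Over all fibroblasts the summed type VI level was 7012 CPM under anti-PD-1, 7929.9 under anti-LIF, 7910.3 in combo and 5388 in control, with log2 ratios to control of 0.38 under anti-PD-1, 0.56 under anti-LIF and 0.55 in combo. In Lrrc15 fibroblasts Col6a1 was at 2796 CPM under anti-PD-1, 3302 under anti-LIF, 3748 in combo and 2764 in control and Col6a2 at 3468 CPM under anti-PD-1, 4314 under anti-LIF, 4660.2 in combo and 3551 in control. Combo was highest for both chains, while the anti-PD-1 ratios to control were 0.017 (-0.036 to 0.070) and -0.034 (-0.081 to 0.013). Col6a5 and Col6a6, chains of skin and a few other tissues, were higher in Dpt than in Lrrc15 fibroblasts of every library. Only Col6a5 of these had Dpt fibroblasts as its top kind in every library. Intermediate fibroblasts held both chains too, at 0.122 and 0.107 UMIs per cell in control. In Dpt fibroblasts Col6a5 was at 32.7 CPM under anti-PD-1, 49.04 under anti-LIF, 156 in combo and 36.7 in control. Combo stood above the other 3 libraries there, with a log2 ratio to control of 2.07 (1.65 to 2.56). Col6a6 was at 16.4 CPM under anti-PD-1, 17.1 under anti-LIF, 31.7 in combo and 14.2 in control, highest in combo.

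Among the 6 kinds ranked above, the type IV chains Col4a1 and Col4a2 were highest in endothelial cells of every library. In endothelial cells Col4a1 was at 5602 CPM under anti-PD-1, 5924 under anti-LIF, 5002 in combo and 4932 in control and Col4a2 at 4369.5 CPM under anti-PD-1, 4599 under anti-LIF, 3981 in combo and 3904 in control. The largest log2 ratio to control of both chains was 0.26 in size. Col15a1, a chain that ties basement membranes to the matrix, was at 1755 CPM under anti-PD-1, 2282 under anti-LIF, 1693 in combo and 1244 in control. All 3 treated libraries were above control for Col15a1, with ratios of 0.50 (0.39 to 0.60) under anti-PD-1, 0.87 (0.78 to 0.97) under anti-LIF and 0.44 (0.36 to 0.53) in combo. In the pericyte gates of anti-LIF and combo, which were not ranked, Col4a1 was at 5260.2 and 5389 CPM and Col4a2 at 4191 and 4250 CPM. Both chains were below the endothelial level under anti-LIF. In combo both were above it, with intervals of 5136 to 5651 for Col4a1 and 4026 to 4483 for Col4a2. Of 15 chains, none was called between combo and anti-LIF in pericytes (8.57% of all genes were).

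Lrrc15 fibroblasts held little type IV collagen RNA, and less in control than in the treated libraries. Col4a1 was at 338 CPM under anti-PD-1, 349 under anti-LIF, 299 in combo and 127 in control in these cells. Control was the lowest library by a wide margin, and the log2 ratios were 1.41 (1.19 to 1.63) under anti-PD-1, 1.45 (1.25 to 1.67) under anti-LIF and 1.23 (1.03 to 1.44) in combo. Col4a2 was at 293 CPM under anti-PD-1, 295 under anti-LIF, 260.2 in combo and 139.7 in control, with ratios of 1.06 (0.85 to 1.28) under anti-PD-1, 1.07 (0.88 to 1.28) under anti-LIF and 0.89 (0.70 to 1.10) in combo. Control held 213 Col4a1 UMIs in 58 of 258 cells, and 48.8% of them lay in 10 cells. As a mean over cells, in which every cell counts alike, the Col4a1 ratios were 0.74, 0.83 and 0.51, still higher but under 1. Dpt fibroblasts held more, at 974 CPM under anti-PD-1, 742 under anti-LIF, 954 in combo and 664 in control, without a called ratio.

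Col15a1 was higher in Lrrc15 fibroblasts of anti-LIF and combo than of anti-PD-1 and control. In Lrrc15 fibroblasts it was at 294 CPM under anti-PD-1, 665 under anti-LIF, 756 in combo and 258 in control, with log2 ratios of 0.19 (0.017 to 0.36) under anti-PD-1, 1.36 (1.22 to 1.51) under anti-LIF and 1.55 (1.41 to 1.70) in combo. The intervals of anti-LIF and combo lay above those of anti-PD-1 and control. Over all fibroblasts it was at 301 CPM under anti-PD-1, 650.0 under anti-LIF, 685 in combo and 311 in control. There the ratio ran from 1.00 to 1.11 under anti-LIF and from 0.82 to 1.15 in combo over all alternatives. In Dpt fibroblasts it was at 409 CPM under anti-PD-1, 578 under anti-LIF, 526 in combo and 333 in control, with all ratios under 1.

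**Figure D4:**
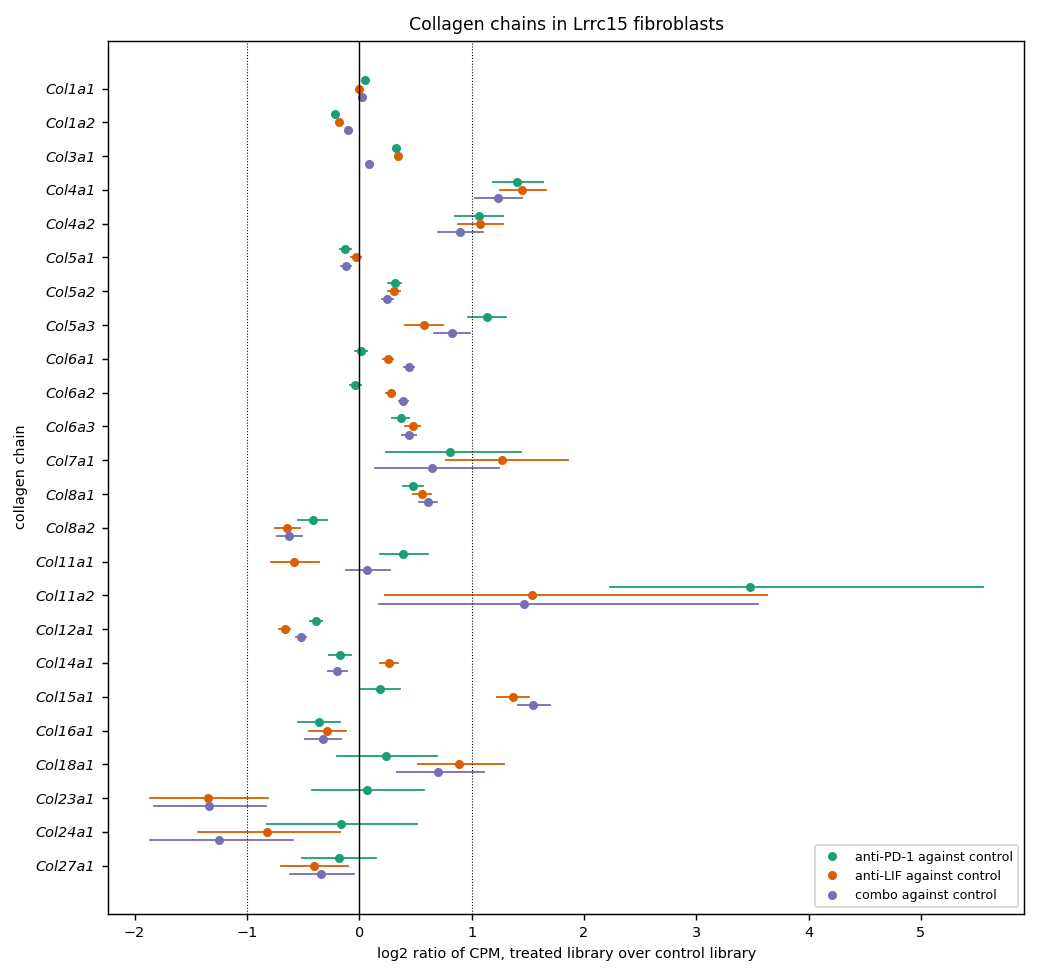
Log2 ratio of CPM of each treated library over control for the 24 collagen chains counted in Lrrc15 fibroblasts, with exact conditional 95% intervals for counting error; dotted lines mark a size of 1. Col1a1, Col1a2 and Col3a1 lie near 0, Col4a1 lies right of 1 in all 3 comparisons and Col15a1 under anti-LIF and combo, while Col11a2 rests on 4 control UMIs and has a wide interval.

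Col18a1 had a higher level in cancer cells than in fibroblasts in every library. It was at 950.4 CPM under anti-PD-1, 978 under anti-LIF, 775 in combo and 667 in control in cancer cells and at 70.7 CPM under anti-PD-1, 98.4 under anti-LIF, 87.8 in combo and 71.7 in control in all fibroblasts. Of the 25 chains compared, Col18a1 alone was past a log2 ratio of 1 in all 4 libraries in the higher direction (3.14 to 3.75; 12.1% of all genes were), and 19 were in the lower direction (12.5%). Cancer cells held 68.1% under anti-PD-1, 74.9% under anti-LIF, 75.3% in combo and 70.4% in control of the Col18a1 UMIs of their library. The ratios to control were 0.51 (0.49 to 0.54) under anti-PD-1, 0.55 (0.53 to 0.58) under anti-LIF and 0.22 (0.19 to 0.24) in combo in cancer cells, none of them called, and the combo ratio was -0.36 with a stricter gate. Endothelial cells held Col18a1 at 694 CPM under anti-PD-1, 499 under anti-LIF, 459.9 in combo and 605 in control.

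Endothelial cells were past a log2 ratio of 1 over all fibroblasts in all 4 libraries for 5 of 26 chains (13.7% of all genes were): Col4a1 (2.98 to 3.66), Col4a2 (3.05 to 3.50), Col15a1 (1.31 to 2.54), Col18a1 (2.34 to 3.29) and Col13a1. In the lower direction there were 20 of 26 (9.07%). The source of Col4a1 in a library moved with its cells: cancer cells held 40.6% under anti-PD-1, 19.4% under anti-LIF, 17.7% in combo and 49.1% in control of its UMIs, and endothelial cells 20.5% under anti-PD-1, 41% under anti-LIF, 34.1% in combo and 12.6% in control. Endothelial cells were 2.47%, 5.94%, 5.76% and 1.28% of the cells kept.

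In macrophages chain levels were low, and Col4a1 and Col18a1 were highest in control. Col4a1 was at 52.7 CPM under anti-PD-1, 36.3 under anti-LIF, 30.1 in combo and 111 in control, against 25 CPM under anti-PD-1, 24.2 under anti-LIF, 29.7 in combo and 33.01 in control in T cells. Col18a1 was at 70.4 CPM under anti-PD-1, 27.3 under anti-LIF, 33.2 in combo and 116 in control, against 50.7 CPM under anti-PD-1, 28.3 under anti-LIF, 39.9 in combo and 43.6 in control in T cells. The 5 cancer cell markers, all detected, summed to 87.6 CPM under anti-PD-1, 71.5 under anti-LIF, 90.1 in combo and 181 in control in the macrophage gate, and the 7 fibroblast markers, all detected, to 101 CPM under anti-PD-1, 84.9 under anti-LIF, 110.1 in combo and 244 in control. Both sums were highest in control, and their part in the result was not tested. With a stricter gate, which asks for 6 marker UMIs and 0 of the other gated kinds, the Col4a1 ratios of -1.08 under anti-PD-1, -1.62 under anti-LIF and -1.89 in combo became 0.24, 0.30 and -0.37. Control held 677 macrophages, the fewest of the 4 libraries.

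Combo was also set against each single antibody. In cancer cells 5 of 16 chains were called against anti-PD-1 (2.4% of all genes) and 3 of 16 against anti-LIF (1.51%). Col1a2 was higher in combo in both cases, with log2 ratios of 1.28 (1.24 to 1.32) and 1.05 (1.01 to 1.10), while Col7a1 was lower than under anti-LIF, at -1.44 (-1.62 to -1.26). In Lrrc15 fibroblasts 4 of 24 chains were called against anti-PD-1 (1.98%), with Col15a1 higher at 1.36 (1.26 to 1.47), and 0 of 24 against anti-LIF (1.15%). In all fibroblasts Col6a5 was higher in combo than under anti-PD-1, at 2.97 (2.52 to 3.51), and than under anti-LIF, at 1.44 (1.24 to 1.64), in comparisons where 4 of 25 (2.97%) and 1 of 25 chains (1.22%) were called.

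Genes that make, cross-link and bind collagen were read from 3 lists. Of 25 genes that modify, fold or trim the chains, 21 were counted in Lrrc15 fibroblasts, and 2, 1 and 1 of them were called higher under anti-PD-1, anti-LIF and combo, with none lower (5.89%, 5.14% and 5.02% of all genes were called), so the shares are near those of all genes. Their median log2 ratio was 0.21, 0.22 and 0.29, beside 0.05, 0.04 and 0.07 over all genes. Serpinh1, the collagen chaperone HSP47, was at 3813 CPM under anti-PD-1, 3915 under anti-LIF, 3461 in combo and 2325 in control, with ratios of 0.71 under anti-PD-1, 0.75 under anti-LIF and 0.57 in combo. Plod2, which hydroxylates lysines for cross-links, had ratios of 1.06 under anti-PD-1, 0.77 under anti-LIF and 0.68 in combo. Adamts14, a trimming protease, was at 23.98 CPM under anti-PD-1, 11.7 under anti-LIF, 12.9 in combo and 1.19 in control. The control value is under the 1.79 CPM that 3 UMIs give in that gate, so it rests on very few UMIs.

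Of the 5 lysyl oxidases, which cross-link collagen, all were counted in Lrrc15 fibroblasts. Loxl4 alone was called, higher in each treated library (1.91 under anti-PD-1, 1.14 under anti-LIF and 1.21 in combo), beside 5.89%, 5.14% and 5.02% of all genes. Its control level was 5.37 CPM, which rests on few UMIs. With so few genes in the list, its share called is not compared with that of all genes. Lox was at 1218 CPM under anti-PD-1, 1106 under anti-LIF, 1181 in combo and 805 in control. In cancer cells 19 genes of the making list were counted, and Pcolce2, an enhancer of trimming, was the 1 of them called under anti-LIF (8.44% of all genes) and in combo (5.33%), with ratios of 0.44 under anti-PD-1, 1.80 under anti-LIF and 2.03 in combo, so the list was no more often called than all genes. Of the 5 lysyl oxidases 4 were counted there, and 1 was called higher under anti-LIF and 1 in combo, beside the same shares of all genes. Lox was the one called under anti-LIF (0.75 under anti-PD-1, 1.26 under anti-LIF and 0.98 in combo). At 0.98 it was not the one called in combo. Serpinh1 had ratios of 0.91 under anti-PD-1, 0.29 under anti-LIF and 0.50 in combo in cancer cells. Of the receptors, 6 of 11 were counted in Lrrc15 fibroblasts and 3 of 11 in cancer cells, and none was called in either. At the shares of all genes given above, few or none would be called among so few, so nothing is read from that. Itga11, the collagen receptor of activated fibroblasts, had ratios of -0.76 under anti-PD-1, -0.77 under anti-LIF and -0.85 in combo in Lrrc15 fibroblasts.

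The 14 chains counted in no cell kind were Col2a1, Col4a3, Col4a6, Col6a4, Col9a1, Col9a2, Col9a3, Col10a1, Col17a1, Col19a1, Col20a1, Col22a1, Col25a1 and Col26a1. They include the cartilage chains of types II, IX and X and Col17a1 of the hemidesmosomes of epithelia. Over all libraries together Col9a3 had 296 UMIs, Col17a1 230, Col4a6 215 and Col2a1 122.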

How the data were processed

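The authors deposited count matrices (UMI counts per gene and cell, whole numbers, not normalized). The submitters' processing notes name Seurat 4.0.3 and mm10, without their role; other steps are not given in the sources used here, nor which library ran on which sequencer. The filter kept barcodes of 200 or more genes whose mitochondrial share of UMIs was no more than 20%. A gate asked for at least 3 marker UMIs of at least 2 genes and over 2 times the UMIs of other kinds. Exceptions held between kinds that share markers: cancer cells could hold up to 10 fibroblast UMIs per keratin UMI, and fibroblasts needed 2 UMIs of Fbln1, Serpinf1 or Mfap5, at most 1 Enpp2 UMI and at most 1 keratin UMI per 50 fibroblast UMIs. Gate limits, and the use of Enpp2 and Xist and removal of Thy1, were set after seeing marker UMIs and without collagen. No doublet caller was run, and the stricter gate is only a partial stand-in because it kept few cells. It left 198, 250, 200 and 561 cancer cells under anti-PD-1, anti-LIF, combo and control. It also left 27 Dpt fibroblasts under anti-PD-1 and 244 macrophages in control. Its values describe those cells and not the whole kind. UMIs were summed per kind and library and divided by their total (CPM), with exact Poisson 95% intervals. Log2 ratios add 0.5 counts and have exact conditional (Clopper-Pearson) 95% intervals, for counting error only. With 1 library per group there was no test. The members and lists were chosen with earlier results of these data known. Chains were named by level (at least 50 CPM in a library, the 12 highest), by ratio (up to 6 in each direction), as known markers of a cell kind, and up to 4 per gene list. Comparisons of kinds with each other were added after seeing the data. Ratios were tested on simulated data. Alternatives changed the gate, cell filters, level filter, added count, denominator, centring and averaging. Python 3.11.15, NumPy 2.4.6, SciPy 1.17.1, pandas 2.3.3 and matplotlib 3.10.9 were used.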

Additional observations from a re-analysis of the deposited data

Results flagged for a closer look

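In several chains the treated library lay above control in 1 gated kind and below it in another, and the difference between the kinds was not tested. For anti-LIF over control, the log2 ratio of Col4a1 was 1.45 in Lrrc15 fibroblasts and -1.62 in macrophages, that of Col4a2 was 1.07 and -1.01 in the same kinds, and that of Col6a3 was 1.23 in cancer cells and -1.55 in macrophages. For anti-PD-1 over control, Col4a1 was at 1.41 in Lrrc15 fibroblasts and -1.08 in macrophages, and Col4a2 at 1.06 and -1.03. For combo over control, Col4a1 was at 1.23 in Lrrc15 fibroblasts and -1.89 in macrophages, and Col6a1 at 1.07 in cancer cells and -1.02 in macrophages. The macrophage side was at low CPM, and with a stricter gate it was above 0 for all of these except Col4a1 in combo.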

How the results depend on the processing

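No paired analysis was possible because each group was 1 library, and for the same reason no replicate could be left out. Depth limits the chains with few UMIs, and intervals cover counting error only, not the spread between animals. The settings that use Xist in fibroblasts, the stromal genes or the T cell level were chosen after seeing the data. The values of cancer cells, all fibroblasts, endothelial cells and macrophages that moved beyond their interval, or by over 1.5 times for a count, follow by setting, and the cause was not tested. Counts of chains called under a changed setting are given without the number of chains counted or the share of all genes called there. With no filter on low values, chains under the minimum level also enter. A larger or smaller count is therefore not read as more or less difference in collagen. With no Xist UMI in a cancer cell, the summed log2 ratio was 0.40 (anti-PD-1), 0.28 (anti-LIF) and 0.27 (combo) in cancer cells. With the T cell level per cell subtracted, the summed log2 ratio was 0.47 (anti-PD-1) and 0.30 (anti-LIF) in cancer cells, 0.26 (anti-LIF) and 0.11 (combo) in endothelial cells, -0.67 (anti-PD-1), -1.22 (anti-LIF) and -0.65 (combo) in macrophages. In cells of at least 1000 UMIs, the summed log2 ratio was -0.48 (anti-PD-1), -0.53 (anti-LIF) and -0.33 (combo) in macrophages. At most 10% mitochondrial UMIs, the summed log2 ratio was 0.55 (anti-PD-1), 0.35 (anti-LIF) and 1.33 (combo) in cancer cells, 0.22 (anti-LIF) and 0.077 (combo) in all fibroblasts, 0.36 (anti-PD-1) and 0.29 (anti-LIF) in endothelial cells, 0.16 (anti-PD-1), 0.22 (anti-LIF) and 0.36 (combo) in macrophages. There the number of chains called was 1 (anti-PD-1) and 3 (anti-LIF) in macrophages. Without UMIs of the 6 stromal genes, the summed log2 ratio was 0.60 (anti-PD-1), 0.56 (anti-LIF) and 0.49 (combo) in cancer cells. There the number of chains called was 7 (anti-LIF) in cancer cells. Centred on the median of all genes, the summed log2 ratio was 0.30 (anti-PD-1), 0.12 (anti-LIF) and 0.36 (combo) in cancer cells, 0.27 (anti-PD-1) and 0.064 (combo) in all fibroblasts, 0.24 (anti-PD-1), 0.28 (anti-LIF) and 0.12 (combo) in endothelial cells, -0.52 (anti-PD-1), -0.46 (anti-LIF) and -0.29 (combo) in macrophages. With collagen and mitochondrial UMIs out of the total, the summed log2 ratio was 0.54 (combo) in cancer cells, 0.35 (anti-PD-1), 0.26 (anti-LIF) and 0.10 (combo) in all fibroblasts. In fibroblasts with a Xist UMI, the summed log2 ratio was 0.33 (anti-PD-1), 0.26 (anti-LIF) and 0.13 (combo) in all fibroblasts. At a mean of at least 50 CPM, the number of chains called was 0 (anti-PD-1), 2 (anti-LIF) and 4 (combo) in cancer cells, 2 (anti-PD-1), 1 (anti-LIF) and 1 (combo) in all fibroblasts, 3 (anti-PD-1), 3 (anti-LIF) and 3 (combo) in endothelial cells, 2 (anti-PD-1), 5 (anti-LIF) and 4 (combo) in macrophages. As a mean over cells, the summed log2 ratio was 0.42 (anti-PD-1), 0.52 (anti-LIF) and 0.64 (combo) in cancer cells, 0.28 (anti-PD-1), 0.27 (anti-LIF) and 0.076 (combo) in all fibroblasts, 0.27 (anti-PD-1), 0.44 (anti-LIF) and 0.76 (combo) in macrophages. There the number of chains called was 3 (anti-PD-1) in all fibroblasts, 2 (anti-PD-1) in endothelial cells, 1 (anti-PD-1), 3 (anti-LIF) and 4 (combo) in macrophages. With no filter on low values, the number of chains called was 12 (anti-PD-1), 16 (anti-LIF) and 20 (combo) in cancer cells, 15 (anti-PD-1), 13 (anti-LIF) and 12 (combo) in all fibroblasts, 17 (anti-PD-1), 18 (anti-LIF) and 18 (combo) in endothelial cells, 16 (combo) in macrophages. With a stricter gate, the summed log2 ratio was 0.54 (anti-PD-1), 0.67 (anti-LIF) and 0.38 (combo) in cancer cells, 0.20 (anti-PD-1), 0.12 (anti-LIF) and -0.062 (combo) in all fibroblasts, 0.41 (anti-LIF) and 0.21 (combo) in endothelial cells, 0.56 (anti-PD-1), 0.95 (anti-LIF) and 1.08 (combo) in macrophages. There the number of chains called was 7 (anti-LIF) in cancer cells, 4 (anti-LIF) and 4 (combo) in all fibroblasts, 0 (anti-PD-1) and 5 (anti-LIF) in macrophages. Without the 10 cells with most collagen, the summed log2 ratio was 0.42 (anti-PD-1), 0.26 (anti-LIF) and 0.34 (combo) in cancer cells, 0.31 (anti-PD-1), 0.26 (anti-LIF) and 0.13 (combo) in all fibroblasts, 0.46 (anti-LIF) and 0.27 (combo) in endothelial cells, -0.26 (anti-PD-1), -0.10 (anti-LIF) and -0.012 (combo) in macrophages. There the number of chains called was 0 (anti-PD-1) in endothelial cells, 2 (anti-PD-1) in macrophages. In Lrrc15 fibroblasts the number of chains called, 4 (anti-PD-1), 6 (anti-LIF) and 5 (combo) as reported, was 3 (anti-LIF) and 2 (combo) at a mean of at least 50 CPM, 3 (anti-LIF) and 3 (combo) as a mean over cells, 14 (anti-PD-1), 17 (anti-LIF) and 15 (combo) with no filter on low values and 2 (anti-PD-1) without the 10 cells with most collagen. In Dpt fibroblasts the number of chains called, 4 (anti-PD-1), 1 (anti-LIF) and 3 (combo) as reported, was 0 (anti-LIF) and 1 (combo) at a mean of at least 50 CPM, 5 (anti-LIF) as a mean over cells, 10 (anti-PD-1) and 9 (anti-LIF) with no filter on low values and 0 (anti-LIF) and 1 (combo) with a stricter gate. In intermediate fibroblasts the number of chains called, 5 (anti-PD-1), 1 (anti-LIF) and 4 (combo) as reported, was 2 (anti-LIF) and 2 (combo) in fibroblasts with a Xist UMI, 1 (anti-PD-1), 0 (anti-LIF) and 1 (combo) at a mean of at least 50 CPM, 2 (anti-LIF) and 2 (combo) as a mean over cells, 11 (anti-PD-1), 5 (anti-LIF) and 12 (combo) with no filter on low values and 3 (anti-LIF) with a stricter gate.

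Among the called ratios of single chains, the number with a size under 1 was 42 of 104 as a mean over cells, 18 of 99 with a stricter gate, 18 of 104 without the 10 cells with most collagen, 16 of 104 at most 10% mitochondrial UMIs, 7 of 104 centred on the median of all genes, 3 of 104 with the T cell level per cell subtracted, 2 of 15 with no Xist UMI in a cancer cell, 2 of 104 in cells of at least 1000 UMIs, 2 of 46 in fibroblasts with a Xist UMI, 1 of 104 with 1 count added and 1 of 104 with collagen and mitochondrial UMIs out of the total. The ratios that follow changed sign. With the T cell level per cell subtracted, the sign turned for Col1a2 -0.24 (anti-LIF) and Col3a1 -0.13 (anti-LIF) in endothelial cells. At most 10% mitochondrial UMIs, the sign turned for Col4a2 0.12 (anti-LIF) in macrophages. Without UMIs of the 6 stromal genes, the sign turned for Col14a1 0.38 (anti-PD-1) in cancer cells. As a mean over cells, the sign turned for Col11a2 -1.16 (combo) in Lrrc15 fibroblasts, Col11a1 0.064 (combo) in intermediate fibroblasts, Col5a1 0.11 (anti-PD-1) in macrophages. With a stricter gate, the sign turned for Col11a2 -1.08 (combo) in Lrrc15 fibroblasts, Col14a1 3.17 (anti-PD-1) in cancer cells, Col14a1 -0.31 (combo) and Col5a3 -0.21 (anti-LIF) in endothelial cells, Col11a1 0.43 (combo) and Col28a1 -0.76 (combo) in intermediate fibroblasts, Col12a1 0.29 (anti-LIF), Col4a1 0.30 (anti-LIF), Col4a1 0.24 (anti-PD-1), Col4a2 0.61 (anti-LIF), Col4a2 0.43 (anti-PD-1), Col4a2 0.45 (combo), Col5a1 0.69 (anti-LIF), Col5a1 0.84 (anti-PD-1), Col5a1 0.93 (combo), Col6a1 0.29 (anti-LIF), Col6a1 0.87 (combo), Col6a2 0.39 (anti-LIF), Col6a3 1.08 (anti-LIF), Col6a3 0.44 (anti-PD-1), Col6a3 1.46 (combo), Col8a1 0.18 (anti-LIF) and Col8a1 0.035 (combo) in macrophages. Without the 10 cells with most collagen, the sign turned for Col11a2 -1.43 (combo) in Lrrc15 fibroblasts, Col12a1 -0.15 (anti-PD-1) in endothelial cells.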

Other observations

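Cancer cells differed in Enpp2, the gene of the enzyme autotaxin, and the split that follows was chosen after seeing the data, so it is a description. Cells with at least 2 Enpp2 UMIs and at least 1000 CPM numbered 276 of 2024 in anti-PD-1, 127 of 1606 in anti-LIF, 263 of 2058 in combo and 1126 of 4364 in control. In these cells Col28a1 was at 20.4 CPM in anti-PD-1, 12.1 in anti-LIF, 5.10 in combo and 53.1 in control. In the other cancer cells it was at 2.42 CPM in anti-PD-1, 0.771 in anti-LIF, 0.779 in combo and 7.998 in control. Col6a1 was at 1145 CPM in anti-PD-1, 1239.7 in anti-LIF, 1132 in combo and 748 in control in the Enpp2-high cells and at 529.9 CPM in anti-PD-1, 689 in anti-LIF, 907 in combo and 340.2 in control in the others. Both chains were higher in the Enpp2-high cells of every library, and control held the most of these cells.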
